A study of Mus musculus with 12 samples.

Results

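E4 is a small-molecule hit compound, known here only by its code, that was given to activated mouse astrocytes for 4 h, and its array was compared with the array of activated astrocytes that received no compound. A gene entered the comparison if its signal was above background (detection p under 0.01) on the E4 array, on the activated control array or on both, which gave 7494 of 16593 named genes. Of these, 6910 were detected on both arrays, 313 on the E4 array alone and 271 on the control array alone. Many more genes were lower than higher with E4: 216 genes were at least 2-fold lower and 37 at least 2-fold higher than in the activated control. The lower genes included antiviral interferon-stimulated genes, guanylate-binding proteins, cell death genes and Notch1, and the higher genes included immediate early genes and the MAP kinase phosphatase Dusp4.

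The astrocytes came from the neural stem cell line Rosa25/OG2, which had been differentiated with 10% fetal calf serum for 4 days, and they then matured for 14 days. The activated control and the E4 sample both received LPS (bacterial lipopolysaccharide) at 1 µg/ml and interferon-gamma at 10 ng/ml. A non-activated control had neither stimulus, and 9 further arrays held activated cells with 1 other coded compound each: E5, E14, E18, E19 or E20, and E21, E23, E29 or E33. Total RNA of each group was measured on 1 Illumina bead array with 1 colour. The dose and structure of E4 are not in the labels. With 1 array per group there is no replicate check, no error and no p-value for any difference below. All values are log2 intensities after background correction and quantile normalisation, or differences between them, and each gene is represented by its brightest probe.

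The E4 array detected 10345 of 25697 probes, within the range of the other 11 arrays (9106 to 10719). Its median raw intensity, 117.1, was the lowest of the 12, the highest being 127.3. Of 23 astrocyte markers represented on the array, the same 18 were detected with E4 and in the control, and none of these differed 2-fold. Gfap, the intermediate filament protein of astrocytes, stood at 12.46 with E4 and 12.37 in the control. All 13 microglia markers represented on the array were below detection with E4 and in the control. Of the markers of other cell types, Map2, Syp and Syt1 (neurons), Cnp (oligodendrocyte lineage) and Acta2 (pericytes and fibroblasts) were detected with E4. The summed linear level of the 16 neuron markers was 3246 with E4 and 3014 in the control, with 2816 to 4144 on the other 9 compound arrays. That of the 11 oligodendrocyte lineage markers was 1113 and 849 (878 to 1704 on the others), and that of the 16 fibroblast, pericyte and endothelial markers 5556 and 7458 (2228 to 6328). Their part in the differences below was not tested. In RNA of whole cultures, fewer cells of a type and less RNA per cell cannot be told apart. The E29 array stood apart from all others, with 1126 genes 2-fold different from E4, so positions of E4 among the arrays are given with and without it.

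LPS is sensed by Toll-like receptor 4, which activates NF-kB and MAP kinases and leads to production of cytokines and type I interferon. Interferon-gamma acts through its own receptor and Janus kinases, leads to transcription from gamma-activated sites and induces the transcription factor IRF1. Type I interferon leads to transcription from the interferon-stimulated response element in promoters of antiviral genes. Astrocytes treated with both stimuli therefore carry an inflammatory and an interferon response side by side.

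Against the activated control, 0.494% of the measured genes were higher with E4 and 2.88% were lower. The median difference over all 7494 genes was 0.04, the standard deviation over genes was 0.44, and 4201 genes (56.1%) lay within 0.3 of zero. Because a single control array can itself deviate, each change was also set against the median of the other 9 compound arrays, which holds neither array compared. Of the 37 higher genes, 23 were 2-fold higher against both references (0.307% of the measured genes), and of the 216 lower genes, 93 were 2-fold lower against both (1.24%). After scaling to a common median 19 genes were higher and 410 lower than in the control, after scaling to reference genes 14 and 547, and without background correction 14 and 65, so the split depends on the normalisation. Both differences use the same E4 array. The median of the 216 lower genes was -1.22 against the control and -0.97 against the other 9 arrays. The control was the highest of the 11 activated arrays for 81 of the 216 genes, and for 439 of all measured genes (5.86%). Next to the threshold, Dnaja2 (-1.001) was counted as lower and Mical3 (-0.99) was not, and Stxbp4 (1.02) was counted as higher and Zbtb2 (0.99) was not.

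**Figure D1:**
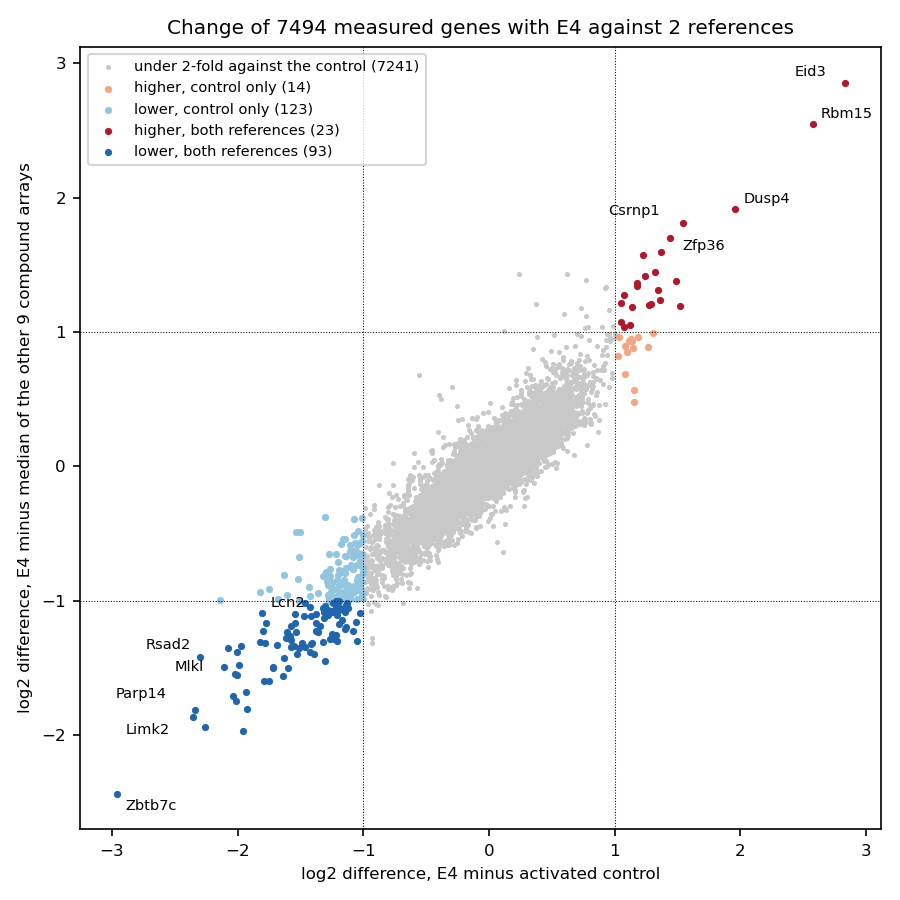
Each point is 1 of the 7494 measured genes, with its log2 difference between E4 and the activated control on the horizontal axis and between E4 and the median of the other 9 compound arrays on the vertical axis. Dotted lines mark 2-fold; 93 genes lie beyond both lines at the lower left and 23 at the upper right, with Eid3 and Rbm15 farthest up and Zbtb7c farthest down.

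With E29 left out, E4 stood outside the range of the other activated arrays for nearly all of these genes. For 22 of the 23 higher genes E4 was the highest of all 11 activated arrays, and for all 23 it was the highest once E29 was left out. For the 93 lower genes E4 was the lowest of the 11 in 58, and in 92 no array other than E29 lay at or below it. Over all measured genes E4 was highest of the 11 in 5.52% and lowest in 11.6%. Undetected values were set to the lowest detected value of their array in these rankings. That value was higher on the E29 array than on the E4 array. An undetected E29 value could therefore rank above E4 although it lay below E4 before this step. Mlkl, Ubox5, Adar and Bid were such genes, with E4 ranked lowest. The count of 58 and the share of 11.6% may be too high for this reason. The lower genes did not simply sit between the activated and the non-activated control: 62 of the 93 were at least 2-fold lower with E4 than in the non-activated control. Of the 23 higher genes, 22 also exceeded the non-activated control by 2-fold or more. Of all 7755 genes detected with E4 or in the non-activated control, 499 were 2-fold lower and 241 were 2-fold higher with E4. Both sets of genes were chosen by their level on the same E4 array, which favours such counts.

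Among the genes higher with E4, 2 stood apart by size. Eid3, which encodes an EP300-interacting inhibitor of differentiation, was detected on only 2 of the 11 activated arrays: it reached 8.35 with E4 and 6.51 with E18, and was not above background in the activated control. It was at least 7.11-fold higher with E4 than in that control. Rbm15, which encodes an RNA-binding protein of the complex that places N6-methyladenosine on RNA, stood at 8.69 with E4, 6.12 in the activated control and 6.17 in the non-activated control, a 5.96-fold difference from the activated control. E18 had the next highest level, 7.35, and E21 followed at 6.84. For both genes E4 lay above every other array, and for neither did the activated control stand above the non-activated control by 2-fold.

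The higher genes also held kinases and their regulators. Dusp4, a phosphatase that inactivates MAP kinases, stood at 8.34 with E4, 6.38 in the activated control and 5.37 (not detected) in the non-activated control, while the other 10 activated arrays ran from 5.88 to 7.39. It was 3.88-fold higher with E4 than in the control, and its other detected probe was also higher (by 1.47 on the log2 scale). Errfi1, a feedback inhibitor of the EGF receptor, was 2.50-fold higher, from 11.13 in the control to 12.45 with E4. The kinases Dyrk1a (2.44-fold) and Csnk1g1 (at least 2.42-fold) were dim, at 7.17 and 6.79 with E4. Ppp1r15b, a regulatory subunit that directs a phosphatase to the translation factor eIF2alpha, was 2.53-fold higher.

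The other genes among the 15 with the largest increases had different roles. Flrt3, a transmembrane protein of cell adhesion, stood at 9.54 with E4, 8.18 in the control and 5.37 (not detected) without activation, and its 3 detected probes were all higher. Cttnbp2nl, which encodes a cortactin-binding protein, was 2.37-fold higher, and Dnal1, a dynein light chain gene, was 2.86-fold higher. Rps15a, a gene of the small ribosomal subunit, was 2.33-fold higher with E4 (8.18 against 6.96). The other cytosolic ribosomal protein genes did not share that size: of 54 measured, Rps15a alone was 2-fold higher and none was lower, with a median of 0.13.

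**Figure D2:**
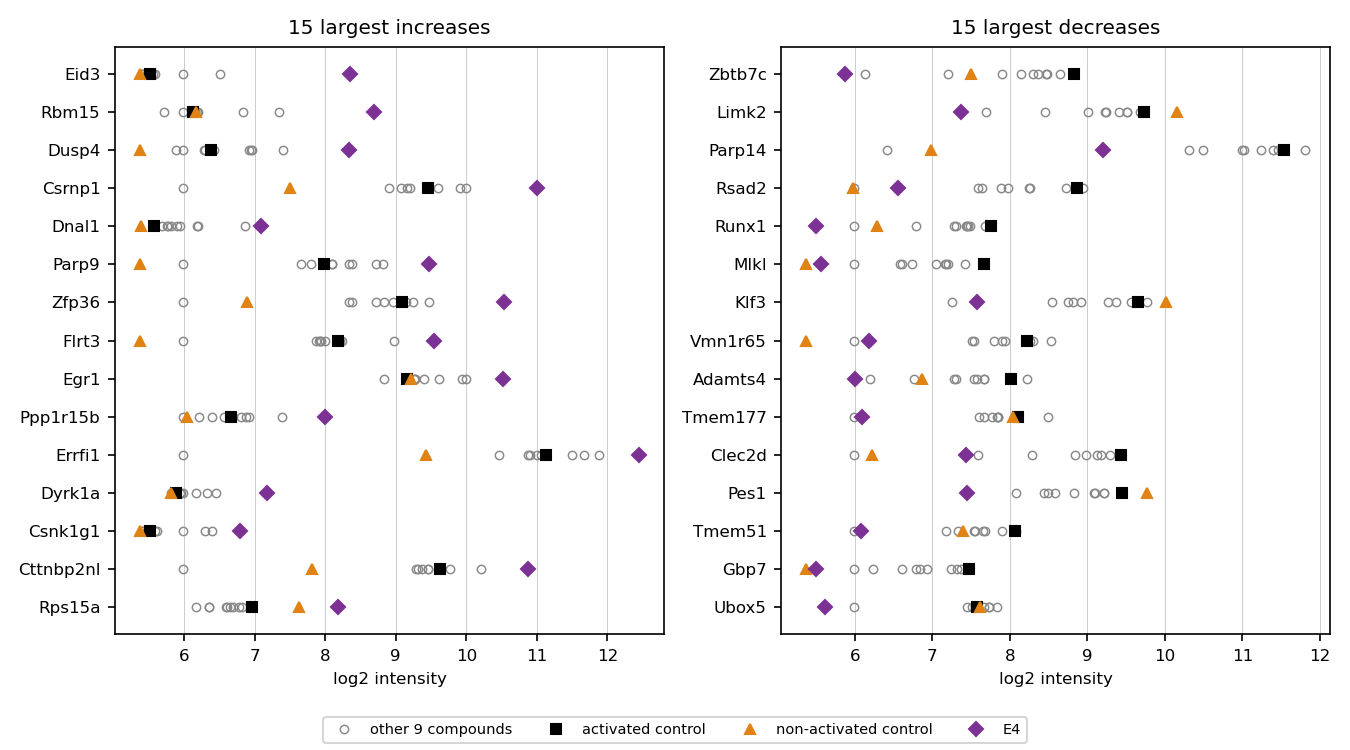
Log2 intensity (horizontal axis) of the 15 genes with the largest increases and the 15 with the largest decreases among genes 2-fold changed against both references, 1 point per array. Undetected values are drawn at the lowest detected value of their array; E4 (diamonds) lies above every other activated array for each of the 15 higher genes, and for each of the 15 lower genes no activated array other than E29 lies below it.

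Zbtb7c, a zinc finger transcription factor gene, had the largest decrease. It stood at 5.87 with E4, 8.83 in the activated control and 7.50 in the non-activated control, and the other 9 compound arrays ran from 6.13 (E29) to 8.64 (E33), with E18 at 7.20. That is 7.78-fold lower than the control and 5.40-fold lower than the median of the other 9 arrays. Runx1, a transcription factor of blood cell development, was not detected with E4 and stood at 7.76 in the control, so it was at least 4.78-fold lower. Klf3, a transcriptional repressor, was 4.22-fold lower (7.57 against 9.65), and E29 was the only other activated array below 8.54 for it. Hexim1, which inhibits the elongation factor P-TEFb, was 3.05-fold lower than the control (7.37 against 8.98), and it was higher without activation, at 10.84.

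Several of the largest decreases were in genes of other functions. Adamts4, a protease that cleaves aggrecan and other proteoglycans, was 4.06-fold lower than in the control, where it stood at 8.02, and the other 9 compound arrays ran from 6.20 to 8.22. Clec2d, a C-type lectin that is a ligand of an inhibitory natural killer cell receptor, was 4.02-fold lower, with E18 (7.58) close to E4 (7.43). Pes1, a ribosome biogenesis factor, was 4.01-fold lower at 7.44, below the non-activated control (9.77) as well. Tmem177 (4.04-fold), a mitochondrial protein gene, and Tmem51 (3.97-fold) were also lower. Vmn1r65, annotated as a vomeronasal receptor gene, was 4.10-fold lower.

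Of 45 gene lists, the type I interferon-stimulated genes had the most members that were lower with E4. Of 29 measured, 13 were 2-fold lower (44.8%, against 2.88% of all measured genes) and 1 was higher, and 27 of the 29 lay below the control. Their median was -0.79 against the control and -0.41 against the other 9 arrays, beside 0.04 and 0.03 over all measured genes. Parp14, an ADP-ribosyltransferase induced by interferon, stood at 9.20 with E4, 11.54 in the activated control and 6.98 in the non-activated control, 5.06-fold lower than in the activated control. The other 8 compounds apart from E29 kept it between 10.31 and 11.81. Rsad2, which encodes the antiviral enzyme viperin, stood at 6.56 with E4 and 8.86 in the control (4.93-fold lower), near the non-activated level of 5.97.

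Further members showed the range of these decreases. Adar, the double-stranded RNA editing enzyme, was 3.82-fold lower by its brightest probe (5.71 against 7.64), and its other detected probes were lower by 1.54 and 0.23 on the log2 scale. Usp18, which removes ISG15 from proteins and restrains type I interferon receptor signalling, was 3.10-fold lower than the control but 1.75-fold lower than the median of the other 9 arrays. Isg15, the ubiquitin-like modifier itself, stood at 8.50 with E4, 9.93 in the control and 6.56 without activation, a 2.69-fold decrease. Ifit3, an antiviral protein that acts with other IFIT proteins, was 2.48-fold lower (10.14 against 11.45), and its 3 detected probes were all lower. Against both references 4 of the 13 were 2-fold lower, namely Parp14, Rsad2, Adar and Ifit3.

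One member of this list moved the opposite way. Parp9, a partner of the ubiquitin ligase DTX3L, stood at 9.47 with E4, 7.98 in the activated control and 5.37 (not detected) in the non-activated control, 2.81-fold higher than in the activated control. Parp14 and Parp9 are close neighbours on chromosome 16 in the RefSeq annotation of GRCm38.p6, with Dtx3l the only protein-coding gene between them. Among the other 10 activated arrays Parp9 was highest with E18 (8.82) and Parp14 was lowest, E29 aside, with E14 (10.31) and E18 (10.49). The levels of different probes are not compared here, only the same probe between arrays.

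Antigen presentation genes and other targets of interferon-gamma were lower in part. Of 31 measured, 10 were 2-fold lower (32.3%, against 2.88% of all measured genes) and none was higher. Of the 31, 26 lay below the control, with a median of -0.71 against the control and -0.49 against the other 9 arrays. Only 4 of the 10 were 2-fold lower against both references. The guanylate-binding proteins, interferon-induced GTPases of cell-autonomous defence, held 5 of the 10. Gbp7 was not detected with E4 and stood at 7.47 in the control, at least 3.93-fold lower, and Gbp5 was 3.37-fold lower (7.22 against 8.97). However, Gbp5 was 1.88-fold lower than the median of the other 9 arrays, and the control was its highest activated array. Gbp10 was 2.92-fold lower, at 8.88 with E4, 10.43 in the control and 5.41 without activation. Irgm2, an immunity-related GTPase, was 2.44-fold lower (11.89 against 13.18), and Psmb9, a catalytic subunit of the immunoproteasome, was 2.33-fold lower (8.03 against 9.25). Nlrc5, the transactivator of MHC class I genes, was not detected with E4 and was at least 2.90-fold lower than the control, where it stood at 7.04. It was also undetected with E19, E29 and E33, so no difference from the other 9 arrays is given.

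Other interferon-gamma targets lay close to their level in the activated control. Irf1 stood at 14.17 with E4 and 14.15 in the control, and the chemokine Cxcl10 at 14.14 and 14.13. The immune checkpoint ligand Cd274 was at 12.85 against 13.22, and the class I heavy chains H2-K1 (0.16) and H2-D1 (-0.01) and the GTPase Irgm1 (-0.06) hardly differed from the control. Cxcl10 and Irf1 are among the brightest genes on the arrays, and quantile normalisation fixes such levels by rank, which limits what can be seen there. The 2 interferon lists share genes with other lists, and none of these counts was tested.

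**Figure D3:**
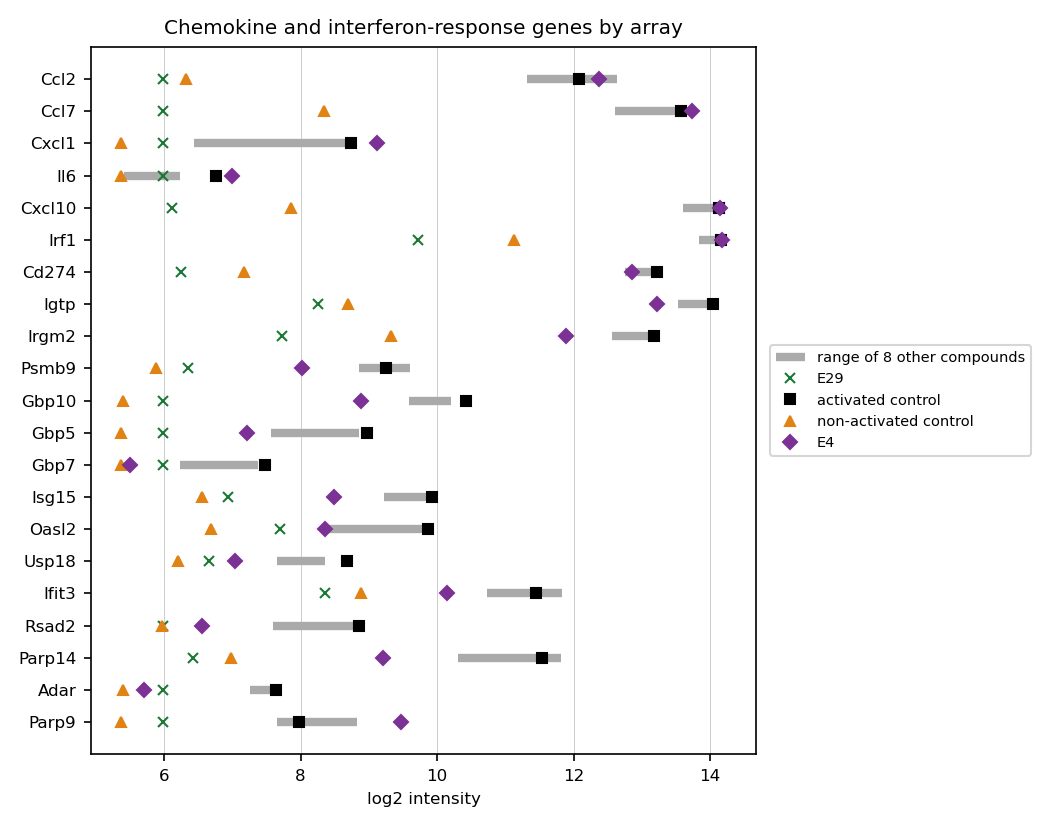
Log2 intensity (horizontal axis) of 21 chemokine and interferon-response genes with E4, in the activated and the non-activated control and with E29; grey bars span the other 8 compounds. E4 lies with or above the activated control from Ccl2 to Irf1 and to the left of the grey bars from Irgm2 to Adar, Oasl2 at the bar's edge, and Parp9 lies to the right of its bar.

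The components of interferon signalling themselves were mostly within 2-fold. Of 30 receptor, kinase, STAT, IRF and SOCS genes measured, 4 were lower (Osmr, Ifnar2, Irf2 and Stat2, 13.3% against 2.88% of all measured genes) and 1 was higher (Socs4), with a median of -0.09. Osmr alone was 2-fold changed against both references. Ifnar2, a chain of the type I interferon receptor, stood at 5.70 with E4 and 7.21 in the control (2.85-fold lower), yet its median over the other 9 arrays was 6.37. Stat2 was 2.01-fold lower (7.53 against 8.54), and Irf9, its partner, differed by -0.09. The interferon-gamma receptor chains Ifngr1 and Ifngr2 differed by 0.02 each and the kinases Jak1 and Jak2 by -0.04 and -0.22. Socs4 was 2.14-fold higher, and the feedback inhibitors Socs5 (0.98) and Cish (0.78) lay above the control without reaching 2-fold.

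Promoter stretches are shown here because an interferon motif was found more often in interferon-list genes that were lower with E4 than in those that were not, which is a description and was not tested. RefSeq windows from 250 bases before to 50 bases after the start site (GRCm38.p6) were searched on both strands for GAAANNGAA, the core of the interferon-stimulated response element. Capitals mark the motif or its reverse complement, and each stretch is written 5′ to 3′ on the gene's strand. The first 5 genes were lower with E4 and Cxcl10 was not.
Isg15 (chr4:156200856-156200916, minus strand): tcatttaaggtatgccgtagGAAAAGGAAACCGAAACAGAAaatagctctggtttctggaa
Ifit3 (chr19:34583354-34583455, plus strand): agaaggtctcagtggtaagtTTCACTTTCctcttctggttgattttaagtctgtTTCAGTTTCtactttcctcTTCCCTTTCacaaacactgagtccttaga
Rsad2 (chr12:26456543-26456591, minus strand): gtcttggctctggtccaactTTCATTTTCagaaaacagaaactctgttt
Gbp7 (chr3:142530264-142530312, plus strand): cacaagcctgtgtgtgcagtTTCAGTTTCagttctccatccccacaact
Irgm2 (chr11:58214893-58214941, plus strand): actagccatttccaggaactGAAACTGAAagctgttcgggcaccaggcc
Cxcl10 (chr5:92349074-92349122, minus strand): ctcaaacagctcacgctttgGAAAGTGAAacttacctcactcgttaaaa
Isg15 and Ifit3 hold 3 matches each and the others 1 each. Of the interferon-list genes that were lower with E4, 16 of 23 had a window and 13 of these held the motif (81.2%). Of the measured interferon-list genes that were not 2-fold lower, 12 of 29 with a window held it (41.4%). The motif was in 8.37% of all measured genes with a window and in 9.76% of all 27025 genes with a window. Some genes, such as Adar, had more than 1 window. The gamma-activated site TTCNNNGAA can overlap the first motif. It was in 17.6% of those of the 216 lower genes that had a window, and in 8.35% of measured genes with a window. A match is a description of the letters and not a binding site.

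Cytokine and chemokine genes did not follow the interferon-stimulated genes. Of 15 measured, none was 2-fold higher or lower, and the median was 0.04 against the control and 0.41 against the other 9 arrays. The monocyte chemokines Ccl2 (12.38 with E4, 12.07 in the control) and Ccl7 (13.73 and 13.57) differed little. Il6 was dim, at 6.99 with E4 and 6.76 in the control, and among the other 9 compound arrays it was detected with E18 (5.76), E21 (6.24) and E23 (6.02) and not with the other 6. Cxcl1, a neutrophil chemokine, stood at 9.12 with E4, 8.74 in the control and at a median of 7.91 with the other 9 compounds. Nos2, Tnf and Il1b were not detected on either array. The list's median was -0.01 after scaling to a common median and -0.11 after scaling to reference genes, so its sign is not settled.

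None of 20 measured Toll-like receptor pathway genes differed 2-fold, with a median of -0.11. Of 17 NF-kB subunit and feedback genes, 2 were 2-fold lower (11.8%, against 2.88% of all measured genes), and 3 and 4 with the scalings to a common median and to reference genes. Nfkb2, which encodes the p100 precursor, was 2.65-fold lower (5.86 against 7.27) and Cyld, a deubiquitinase that restrains NF-kB, was 2.17-fold lower. Cyld was within 2-fold of the other 9 arrays (-0.88). Tnfaip3, a feedback inhibitor of NF-kB, differed by 0.62 from the control and by 1.43 from the other 9 arrays, and Nfkbia by 0.51 and 0.41.

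Immediate early genes, which respond to MAP kinase signalling without new protein synthesis, had the most higher members of the 45 lists. Of 22 measured, 5 were 2-fold higher (22.7%, against 0.494% of all measured genes), all 5 against both references, and 1 was lower. The median was 0.55 against the control and 0.70 against the other 9 arrays, and E4 was the highest of the 11 activated arrays for 12 of the 22. Csrnp1, a nuclear protein gene, was 2.92-fold higher than in the control, where it stood at 9.46, with 7.50 without activation and 10.00 (E18) as the next highest activated level. Zfp36, which encodes tristetraprolin, a protein that promotes decay of cytokine mRNAs, was 2.72-fold higher, at 10.53 against 9.09, and the other 10 activated arrays ran from 5.99 (E29, not detected) to 9.47. Egr1, a zinc finger transcription factor, was 2.56-fold higher, at 10.52 with E4, 9.16 in the control and 9.22 without activation.

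Of the AP-1 genes Fos, Fosb, Jun, Junb, Jund and Atf3, Jund alone lay below the control. Atf2 had probes in both directions and is described below. Fos stood at 9.99 with E4 and 8.95 in the control (2.07-fold higher), and Fosb was not detected in the control and at least 2.10-fold higher with E4. Junb (0.96) and Atf3 (0.90) lay just under 2-fold, Jun differed by 0.12 and Jund by -0.33. Srf, the serum response factor that activates many of these genes, was 2.01-fold lower than the control, but only 0.38 below the median of the other 9 arrays. After scaling to a common median or to reference genes, 3 members were 2-fold higher and 2 lower in place of 5 and 1, and the list's median was 0.31 and 0.21.

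MAP kinase feedback genes divided. Of 17 measured, Dusp4 and Errfi1 were higher and Spred1, an inhibitor of RAS signalling, was 2.08-fold lower (9.45 against 10.51), with a list median of 0.19. The shares were 11.8% higher and 5.88% lower, against 0.494% and 2.88% of all measured genes. Dusp1 (0.42), Dusp6 (-0.16) and Spry4 (0.06) were within 2-fold. The median turned to -0.03 and -0.13 with the 2 scalings. Of 23 TGF-beta and BMP genes, the matricellular genes Ccn1 (2.19-fold) and Ccn2 (2.11-fold) were higher (8.70%). Ccn1 was within 2-fold of the other 9 arrays (0.95). The receptor Tgfbr2 was 2.29-fold lower by its brightest probe (8.82 against 10.01, 4.35% of the list), whereas its second detected probe was higher by 1.26.

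**Figure D4:**
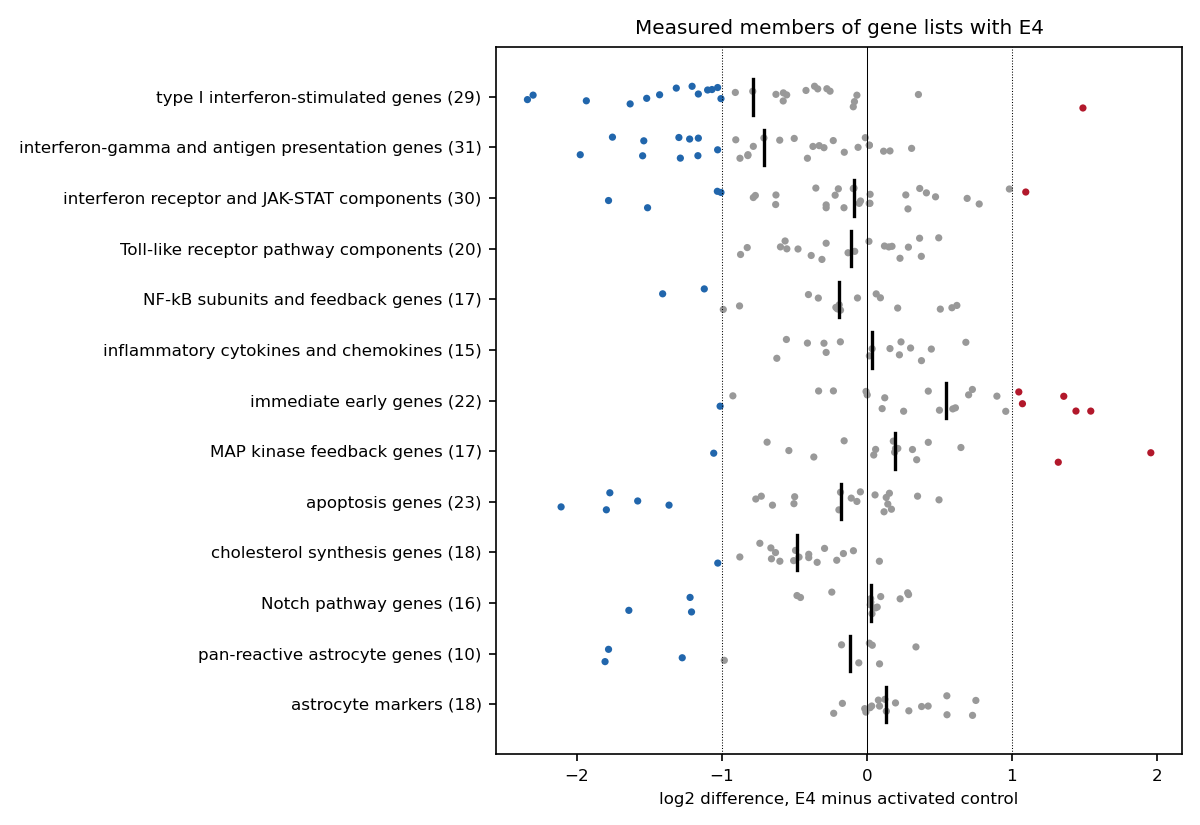
Log2 difference between E4 and the activated control (horizontal axis) for each measured member of 13 gene lists, with the number measured in brackets. Vertical bars are medians, dotted lines mark 2-fold, and red and blue points lie beyond it; the medians of both interferon-stimulated lists lie at -0.79 and -0.71 and that of the immediate early genes at 0.55.

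Of 23 measured apoptosis and necroptosis genes, 5 were 2-fold lower (21.7%, against 2.88% of all measured genes) and none was higher. All 5 were lower against both references, as were 1.24% of all measured genes, and the median over the list was -0.18. Mlkl, the membrane-permeabilising effector of necroptosis, stood at 5.56 with E4, 7.67 in the activated control and 5.37 (not detected) without activation, 4.31-fold lower. Apaf1, the scaffold of the apoptosome, was 3.47-fold lower, at 5.58 against 7.37. Bid, a BH3-only protein that links death receptors to mitochondria, was not detected with E4 and at least 3.41-fold lower. Fadd, the death receptor adaptor, was 2.57-fold lower, and its 3 detected probes were all lower. Bcl2l11, which encodes the BH3-only protein BIM, was 2.99-fold lower by its brightest probe. Of its other detected probes 1 was lower by 1.06 on the log2 scale and 1 was higher by 0.67. The survival genes Bcl2 (0.13), Xiap (0.17) and Mcl1 (-0.11) and the caspase Casp6 (0.16) were close to the control.

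Notch1, a receptor that maintains neural progenitors, stood at 7.77 with E4, 9.41 in the activated control and 9.18 in the non-activated control, and the other 10 activated arrays ran from 8.41 to 10.07. It was 3.12-fold lower than in the control, below every other array. Of 16 Notch pathway genes measured, Dtx4 (2.33-fold) and Notch4 (2.31-fold) were also lower and none was higher. The 3 lower genes were 18.8% of those measured, against 2.88% of all measured genes, and the list's median log2 difference was 0.03. Against the other 9 arrays Notch4 was lower by less than 2-fold (-0.84). The targets Hes1 (-0.46) and Hey1 (0.10) were within 2-fold. Of 16 Sox and neural progenitor genes only Sox2 was lower, 2.12-fold, at 7.07 against 8.15, with 9.27 in the non-activated control, and its second detected probe was lower by 0.82 on the log2 scale. That is 6.25% of the genes measured in that list, and its median was 0.03. Wnt7a was the only one of 19 Wnt pathway genes 2-fold lower (2.85-fold, 5.26% of the list), with a list median of -0.16. It lay just under 2-fold lower (-0.999) against the other 9 arrays.

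Genes of cholesterol synthesis were lower by small amounts in nearly every member. Of 18 measured, 17 lay below the control, with a median of -0.48 against the control and -0.44 against the other 9 arrays. Only Lss, which encodes lanosterol synthase, was 2-fold lower (5.92 against 6.95), 5.56% of the list against 2.88% of all measured genes. Lss was within 2-fold of the other 9 arrays (-0.82). The rate-controlling squalene epoxidase Sqle differed by -0.50, Hmgcs1 by -0.60, Idi1 by -0.88 and the regulator Srebf2 by -0.66. Among 12 fatty acid synthesis genes, the elongase Elovl6 was 3.29-fold lower (6.27 against 7.98) and the others were within 2-fold. In contrast 36 of 38 respiratory complex I genes and 48 of 54 cytosolic ribosomal protein genes lay above the control. Their medians were 0.21 and 0.13, beside 0.04 over all measured genes. Ndufb11 (2.22-fold, 2.63% of its list) and Rps15a (1.85%) were the members at 2-fold, against 0.494% of all measured genes. The control was the lowest activated array for Ndufb11, which was 1.49-fold higher than the median of the other 9 arrays.

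Reactive astrocyte genes were lower in part. Of 10 pan-reactive genes measured, 3 were 2-fold lower (30.0%, against 2.88% of all measured genes). Lcn2, the secreted iron-siderophore carrier lipocalin, stood at 10.50 with E4, 12.30 in the activated control and 11.91 in the non-activated control, 3.49-fold lower, and the other 9 compound arrays ran from 10.63 to 12.02. Osmr, the oncostatin M receptor, was 3.43-fold lower (7.64 against 9.42), below every other array. Cd44, the hyaluronan receptor, was 2.41-fold lower by its brightest probe, but its other 4 detected probes were higher, by 0.72 to 1.71. Gfap (0.09) and Vim (-0.06) were close to the control, and the list's median was -0.12. Of the 7 A1 genes measured, the interferon-inducible GTPase Iigp1 was 2-fold lower (14.3%, median -0.42). Of the 9 A2 genes Sphk1, a sphingosine kinase, was 2-fold lower (11.1%, median -0.36). Both Iigp1 (-0.78) and Sphk1 (-0.665) were within 2-fold of the other 9 arrays.

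Stress response lists had at most 2 members at 2-fold. None of 20 Nrf2 target genes differed 2-fold, with Hmox1 at 0.13 and Nqo1 at 0.26, and none of 19 heat shock genes did, with medians of 0.08 and -0.09. Chac1, a glutathione-degrading enzyme gene, was 2.11-fold higher than the control and 1.86-fold higher than the median of the other 9 arrays. It was the only one at 2-fold of 24 genes of the unfolded protein and integrated stress responses (median 0.25). That is 4.17%, against 0.494% of all measured genes. Of 21 p53 target genes, the cell cycle inhibitor Cdkn1a (2.41-fold) and Trp53inp1 (2.20-fold) were lower than the control (9.52%, against 2.88% of all measured genes). Both lay within 2-fold of the other 9 arrays, and the list's median was -0.01. Of 148 Zfp zinc finger genes, 4 were lower (2.70%, near the share of all measured genes) and 1 higher (Zfp36, 0.676%), with a median of -0.17. None of 13 reference genes differed 2-fold, with a median of 0.05.

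Genes induced by activation were defined without either array compared, as those at least 2-fold higher in the median of the other 9 compound arrays than in the non-activated control. They numbered 190 (2.49% of 7622 genes), and 185 genes (2.43%) were reduced by the same measure. All 190 were measured with E4: 33 were 2-fold lower than in the activated control and 15 were 2-fold higher, with a median of -0.15. Of all 7494 measured genes, 2.88% were lower and 0.494% higher, so both directions were more frequent among the induced genes. So 15 of the 37 higher genes and 33 of the 216 lower genes were induced genes, and 160 of the 216 lower genes were neither induced nor reduced by activation. Of the 173 reduced genes that were measured, 23 were lower still with E4 and 1 was higher, with a median of -0.35. Lower genes were thus also more frequent there than the 2.88% of all measured genes. Of the induced genes with a window, GAAANNGAA was in 13 of the 25 that were lower with E4 (52.0%). It was in 17 of the 128 that were not (13.3%).

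Among the other arrays E18 lay nearest to E4. The standard deviation over genes of the difference was 0.34 for E18, with 26 genes 2-fold higher and 64 lower with E4, against 0.44 and 37 and 216 for the activated control. For 11 of the 23 higher genes E18 had the highest level after E4, and for 47 of the 93 lower genes it had the lowest level after E4 when E29 was left out. E33 was next lowest for 19, E14 for 12 and E19 for 10. How often each array held these places over all measured genes was not counted, so the counts are not particular to the called genes. With the median of the other 9 arrays taken without E18, 28 genes were higher and 105 lower against both references.

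Different probes of the same gene parted with E4. Of 1697 genes with at least 2 probes detected on at least 10 of the 11 activated arrays, 17 (1.00%) had a pair of probes whose balance with E4 lay 2-fold away from the median of the other 10 arrays. E29 had 87 such genes (5.13%) and each of the other activated arrays 0 to 2. In 15 genes the probes differed 2-fold in their change against both references, and in 13 of these they changed with opposite signs. Limk2, a kinase of actin regulation, was 5.13-fold lower by its brightest probe (7.37 against 9.73), while its other probe, annotated to the same transcript, differed by 0.21. Ubox5, a ubiquitin ligase gene, was 3.89-fold lower by its brightest probe (5.61 against 7.57) and its other probe differed by 0.03. Atf2 had probes at -1.05 and 0.74, annotated to different transcripts.

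Of the 15 genes, 10 had both probes annotated to the same transcript and 5 to different transcripts. The positions of the probes within the transcripts were not analysed here. Besides those 15, a second detected probe had the opposite sign for Tgfbr2 (brightest -1.19, another 1.26), Lrrfip1 (-1.75 and 0.97), Trim21 (-1.20 and 0.29) and Rhobtb2 (-1.22 and 0.31), named after their values were seen. In all, 86 of 99 additional probes had the sign of the brightest one. For the genes called against both references 5 of 42 did not.

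**Figure D5:**
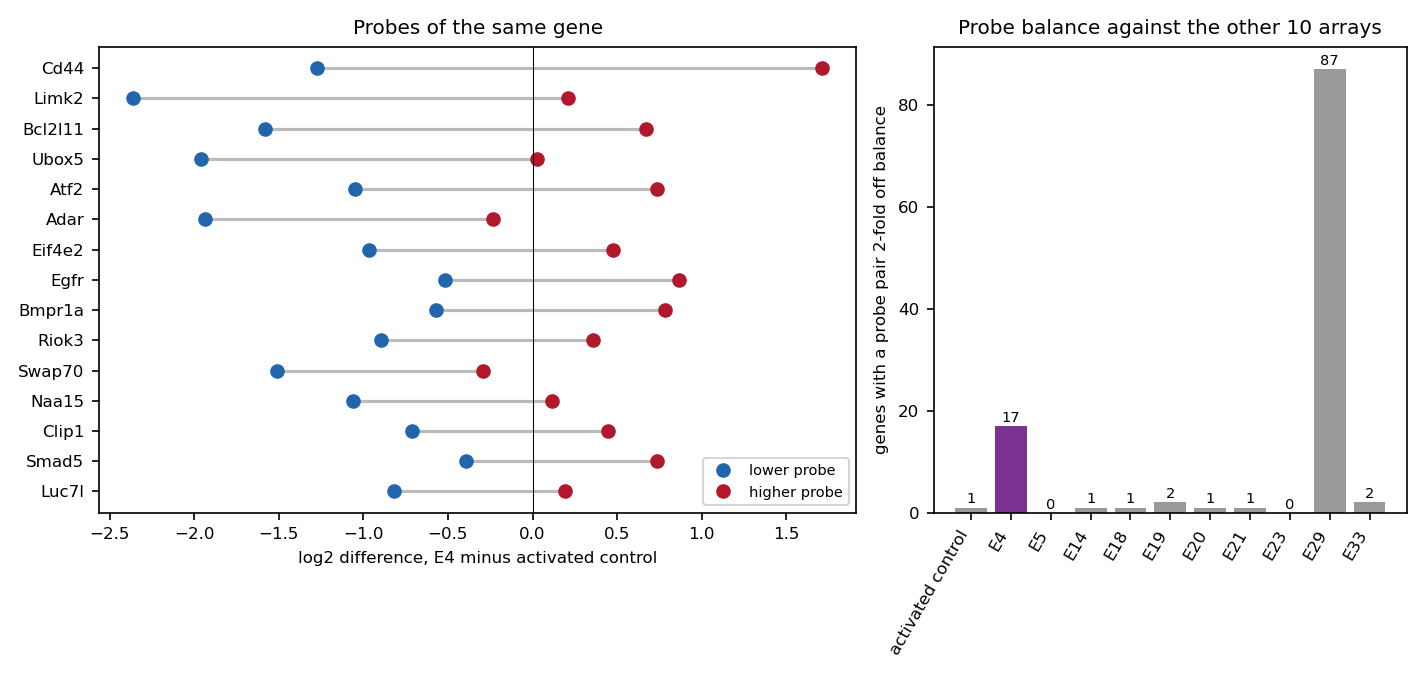
Left, the log2 difference between E4 and the activated control (horizontal axis) for the lower and the higher probe of each of 15 genes whose probes differed 2-fold in their change. Right, the number of genes with a probe pair 2-fold off the balance of the other 10 activated arrays, by array, with 17 for E4, 87 for E29 and 0 to 2 for the others.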

How the data were processed

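The samples were 12 Illumina bead arrays, 1 per group, so groups were compared array against array, with no test, error or p-value between them, and the number of arrays limits precision. The deposited table holds raw bead intensity values, not normalised per the file header. Beside each intensity the authors deposited a detection p-value. GenomeStudio 2010.3 is named per the submitters' processing notes. The authors also deposited processed intensity values on a linear scale and in the same direction, normalised by a method not given in the sources used here. All 12 of its columns followed the raw column of the same sample best.

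Intensities were normalised together in R 4.3.3 by the neqc function of the limma package, version 3.58.1 (background from the detection p-values, offset 16, quantile normalisation, log2), checked on simulated data. Values not detected were raised to the lowest detected value of their array, 5.50 for E4 and 5.52 for the activated control, so that such changes are bounds, written "at least". Genes were named from the platform annotation, updated through RefSeq (GRCm38.p6); 1719 of 25697 probes are not listed there, and of these 590 were measured, 3 higher and 23 lower. A change was called at 2-fold. Counting used pandas 2.3.3, numpy 2.4.6 and Python 3.11.15, and plots used matplotlib 3.10.9.

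The genes compared and the 45 gene lists (39 written out, the others taken by symbol) were chosen with earlier results of these data known. Genes were named by rule: the 15 largest changes per direction among genes changed against both references, up to 4 called members per list, members with a defining role, and, in any case, Gfap, Nqo1, Hmox1, Cxcl10, Ccl2, Il1b, Tnf, Il6 and Nos2. Symbols starting with LOC, Gm or ENSMUS or ending in Rik were counted only. Alternatives were 2 other scalings, no background correction, an offset of 50, a detection p under 0.05, no detection filter, the mean of probes, the authors' processed values, other references and, chosen after seeing the data, the second reference without E29 or without E18. Promoter sequences are those of RefSeq; genes without a window were not searched.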

Additional observations from a re-analysis of the deposited data

How the results depend on the processing

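The normalisation decides how many genes pass 2-fold. Quantile normalisation gave 37 higher, 216 lower, 23 higher against both references and 93 lower against both. In that order the counts were 19, 410, 15 and 194 when arrays were scaled to a common median, 14, 547, 12 and 253 when they were scaled to reference genes, 14, 65, 12 and 22 without background correction, and 21, 127, 15 and 52 with an offset of 50. The scalings moved the median of all genes from 0.04 to -0.14 and -0.24, and the share of calls that were higher from 14.6% to 4.43% and 2.50%. With the median of the other 9 compound arrays in place of the activated control, 38 genes were higher and 101 lower (27.3% higher). The counts moved by less than 1.5 times with a detection p under 0.05, without a detection filter, with the mean of probes, with the authors' processed values (52, 249, 31 and 128), with a second reference of 10 arrays, and with that reference without E29 or without E18.

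Of 1008 values of 84 named genes over 12 alternatives, 680 moved by less than 0.199, the smallest standard deviation over genes between a pair of arrays, and 8 values of 6 genes changed sign. Of these, 2 were of genes called at 2-fold: with the mean of detected probes Tgfbr2 was at 0.032 and Cd44 at 0.61. The others were of genes within 0.255 of zero. Of 480 medians of 40 lists, 428 moved by less than 0.199, and 50 medians of 22 lists changed sign, 29 of them with the scalings to a common median or to reference genes. Most had a size of at most 0.192 to begin with; the exceptions were those of the unfolded protein and stress response genes (-0.062 against 0.25, when scaled to reference genes) and of the A2 reactive astrocyte genes (0.014 against -0.36, without the filter). The causes were not tested. Dim genes have less room to fall before they reach background, so decreases from low levels are bounds. No paired analysis was possible because each group holds 1 array.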

Other observations

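Further gene lists had at most 4 members at 2-fold, beside 2.88% lower and 0.494% higher of all measured genes. Of 148 solute carrier genes measured, 4 were lower with E4 (2.70%) and none was higher, with a median of 0.06. They were the sugar transporter gene Slc2a6 (-2.14 against the control, -0.99 against the other 9 compound arrays), Slc66a2, Slc41a2 and Slc22a23. Of 21 TRIM ubiquitin ligase genes, Trim21 (-1.20) and Trim45 (-1.20, not detected with E4) were lower (9.52%), and the median was -0.27. Of 15 glucocorticoid-responsive genes, Lcn2 and the lipoprotein lipase inhibitor gene Angptl4 (-1.68) were lower (13.3%) and Errfi1 was higher (6.67%), with a median of -0.12. Nfil3, a transcriptional repressor that antagonises the clock output factor DBP, was 2.27-fold higher. It was the only one at 2-fold of 16 circadian clock genes (6.25%, median 0.11). Pde4b, a cAMP-degrading phosphodiesterase, was 2.05-fold higher and the only one at 2-fold of 12 cAMP-response genes (8.33%, median 0.01). Slc41a2, Slc22a23, Trim21, Trim45, Angptl4 and Pde4b were within 2-fold of the median of the other 9 arrays.

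Hdac7 (-1.07) was the only one at 2-fold of 23 histone acetyltransferase, deacetylase and bromodomain genes (4.35%, median -0.05). Hexim1 was the only one of 22 elongation and Mediator genes (4.55%, median 0.04). Cdkn1a was the only one at 2-fold of 19 cell cycle genes (5.26%, median 0.04). All 3 were lower, beside 2.88% of all measured genes, and Hdac7 and Cdkn1a were within 2-fold of the median of the other 9 compound arrays. No member reached 2-fold among 21 histone methyltransferases and demethylases (median -0.16), 24 hypoxia and glycolysis genes (0.12), 26 extracellular matrix and integrin genes (0.12), 14 growth factors (-0.07), 24 constitutive proteasome subunits (-0.03) or 2 Hedgehog pathway genes (0.20). Several of these genes belong to more than 1 list, and no list was tested.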
